A study of Mus musculus with 6 samples.

Results

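Transcripts of 8 genes of the PARP family (Parp1, Parp2, Parp8, Parp9, Parp10, Parp11, Parp12 and Parp14) and of Dtx3l were followed in mouse alveolar macrophages by RNA-seq. The 9 genes were chosen as interferon-linked family members, with Parp1 and Parp2 as a DNA-repair contrast. Earlier results of these data were known at that choice. The genes were taken by symbol from the 23413 genes of the deposited count table. All 9 were among the 10724 genes with enough counts to be tested. Wild-type cells from lung lavage formed 3 groups of 2 libraries: cells cultured for 4 h with LPS (100 ng/mL) plus vitamin D3 (VD3, 50 nM), cells cultured for 4 h with LPS (100 ng/mL) alone, and control cells, whose culture conditions the sources used here do not give. LPS is a bacterial cell wall component sensed by Tlr4. Mouse strain, sex and age are not given either, nor whether libraries came from separate mice or pools, so p-values cover only variation between libraries that may be technical replicates. Depth was 5022314 to 5465223 counts per library.

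PARP enzymes take ADP-ribose from NAD and attach it to proteins or nucleic acids. PARP1 and PARP2 build chains of ADP-ribose at broken DNA and help to start its repair. Most other family members add single units or have lost the activity, and many of their genes, with that of the ubiquitin ligase DTX3L, respond to interferon. In macrophages, Tlr4 can induce interferon beta, which acts back on the same cells.

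Parp9, Dtx3l and Parp14 lie in 1 stretch of mouse chromosome 16 (mm10, GENCODE vM21). Parp9 is on the plus strand at chr16:35938470-35972605, Dtx3l on the minus strand at chr16:35926511-35939151, and Parp14 on the minus strand at chr16:35832874-35871544. Parp9 and Dtx3l stand head to head, with the nearest pair of annotated starts 140 bp apart. Their exons overlap by 458 bp, which is 9.4% of the Parp9 exons and 8.0% of the Dtx3l exons. Whether reads were counted by strand is not given in the sources used here, so the counts of these 2 genes are uncertain within that overlap. The bodies of Parp14 and Dtx3l are 54966 bp apart, with no other protein-coding gene between them.

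**Figure D1:**
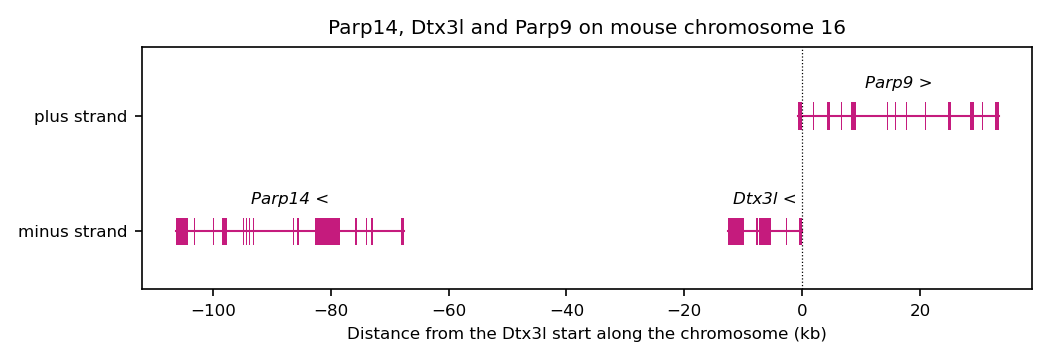
Exons (blocks) and introns (lines) of Parp14, Dtx3l and Parp9, by strand, against distance in kb from the annotated Dtx3l start (dotted line). The nearest annotated starts of Parp9 and Dtx3l are 140 bp apart, inside the overlap of both genes, whose bodies extend in opposite directions. Parp14 lies 54966 bp beyond the Dtx3l end.

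Promoter windows from RefSeq (GRCm38.p6; 250 bases before to 50 after a gene's start) were matched for 6 of the 9 genes, 7 windows in all; none was matched for Parp9, Parp14 and Parp10. Dtx3l is shown because its window covers part of the stretch it shares with Parp9, with the nearest annotated starts of both. Parp12 is shown because it was the gene that passed the test between LPS + VD3 and LPS. The upstream Parp11 window is shown because it alone held a match to the motifs searched for. The Dtx3l window (chr16:35938978-35939277, minus strand) has in capitals the 141 bases from the Dtx3l start to the nearest Parp9 start, both as annotated in GENCODE. These capitals begin at base 127, before the RefSeq start on which the window was built. The Parp12 window (chr6:39118300-39118599, minus strand) is 73.7% G and C with 46 CpG. The Parp11 window (chr6:127446590-127446889, plus strand) is 42.0% G and C with 5 CpG and has motif matches in capitals.
Dtx3l: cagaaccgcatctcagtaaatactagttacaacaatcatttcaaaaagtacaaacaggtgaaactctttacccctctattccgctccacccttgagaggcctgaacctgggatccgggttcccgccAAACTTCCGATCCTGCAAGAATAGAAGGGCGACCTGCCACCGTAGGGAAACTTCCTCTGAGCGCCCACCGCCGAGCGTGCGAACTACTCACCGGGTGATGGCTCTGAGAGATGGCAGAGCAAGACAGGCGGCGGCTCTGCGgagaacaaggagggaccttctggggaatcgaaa
Parp12: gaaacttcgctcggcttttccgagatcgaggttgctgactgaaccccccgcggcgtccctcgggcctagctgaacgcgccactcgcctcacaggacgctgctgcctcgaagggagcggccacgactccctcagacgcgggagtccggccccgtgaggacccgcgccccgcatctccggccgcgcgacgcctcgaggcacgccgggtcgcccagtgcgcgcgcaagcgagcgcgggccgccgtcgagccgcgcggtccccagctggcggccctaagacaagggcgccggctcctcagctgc
Parp11: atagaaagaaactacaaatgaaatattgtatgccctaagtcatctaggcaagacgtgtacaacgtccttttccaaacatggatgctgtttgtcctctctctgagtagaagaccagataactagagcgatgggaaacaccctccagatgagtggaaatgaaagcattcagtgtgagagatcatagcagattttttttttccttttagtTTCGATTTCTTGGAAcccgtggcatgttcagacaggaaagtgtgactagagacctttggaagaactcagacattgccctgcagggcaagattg

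Each window was searched on both strands for 3 motifs: the core of the interferon-stimulated response element (ISRE) as GAAANNGAA, the gamma-activated site (GAS) as TTCNNNGAA, and the kappaB consensus. Of 32851 RefSeq windows of 300 bases, 8.56% held the ISRE core, 8.3% the GAS and 8.46% the kappaB consensus. The upstream Parp11 window held TTCGATTTC (an ISRE core on the minus strand, 43 bases before the start) and TTCTTGGAA (a GAS, 37 bases before the start), which overlap by 3 bases, and no kappaB consensus. The windows of Dtx3l, Parp12, Parp8, Parp1 and Parp2 and the downstream window of Parp11 held none of the 3. These matches describe sequence and are no evidence of binding.

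Between LPS and control, 7 of the 9 genes differed, with 6 higher and 1 lower in LPS cells. Culture conditions of the control cells are not given, so an effect of LPS cannot be told apart from one of culture. Here and below, rose, fell, raised and lowered only compare the groups named. Parp14, Parp9, Dtx3l, Parp12, Parp10 and Parp11 rose, and Parp1 fell. Of all 10724 genes tested, 31.8% were called in this comparison, 15.7% as higher and 16.2% as lower (edgeR quasi-likelihood test, Benjamini-Hochberg adjusted p under 0.05). The median log2 fold change was 1.75 over the 9 genes and 0.006 over all genes tested. In bulk RNA, fewer cells with a transcript and less of it per cell cannot be told apart.

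Parp14 had the highest count of the 9 genes in every LPS library. It encodes a mono-ADP-ribosyltransferase with macrodomains that bind ADP-ribose, and is known as a cofactor of STAT6. Its level was 1053 and 1061 CPM (counts per 1000000, scaled by TMM) in LPS + VD3 libraries 1 and 2, 1011 and 1195 CPM in the LPS libraries, and 62.3 and 63.9 CPM in the control libraries. All 4 libraries with LPS thus lay far above both controls, and the range of the LPS libraries enclosed that of the LPS + VD3 libraries. The log2 fold change of LPS against control was 4.13 ± 0.17 (SE; edgeR adjusted p = 6.95e-08), a 17.5-fold rise.

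Parp9 encodes a macrodomain protein that binds DTX3L, and the pair acts as a ubiquitin ligase in interferon responses and DNA damage. Its level was 156 and 160.0 CPM in LPS + VD3 libraries, 192 and 211 CPM in LPS libraries, and 34.6 and 34.3 CPM in control libraries. Dtx3l, the ligase, followed with 167 and 164 CPM in LPS + VD3 libraries, 197 and 222 CPM in LPS libraries, and 41.2 and 37.3 CPM in control libraries. For both genes the 3 groups did not overlap, with LPS on top, LPS + VD3 below it and control lowest. LPS raised Parp9 by 2.55 ± 0.16 on the log2 scale (5.84-fold; edgeR adjusted p = 1.43e-06). It raised Dtx3l by 2.41 ± 0.16 (5.33-fold; edgeR adjusted p = 2.26e-06). The number of Dtx3l counts per Parp9 count was 1.07 and 1.02 in LPS + VD3 libraries, 1.03 and 1.05 in LPS libraries, and 1.19 and 1.09 in control libraries. The count ratio was thus between 1.02 and 1.19 in all 6 libraries, with both control libraries above every library with LPS. This difference in ratio was not tested, and the exon overlap of the 2 genes leaves part of both counts uncertain.

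**Figure D2:**
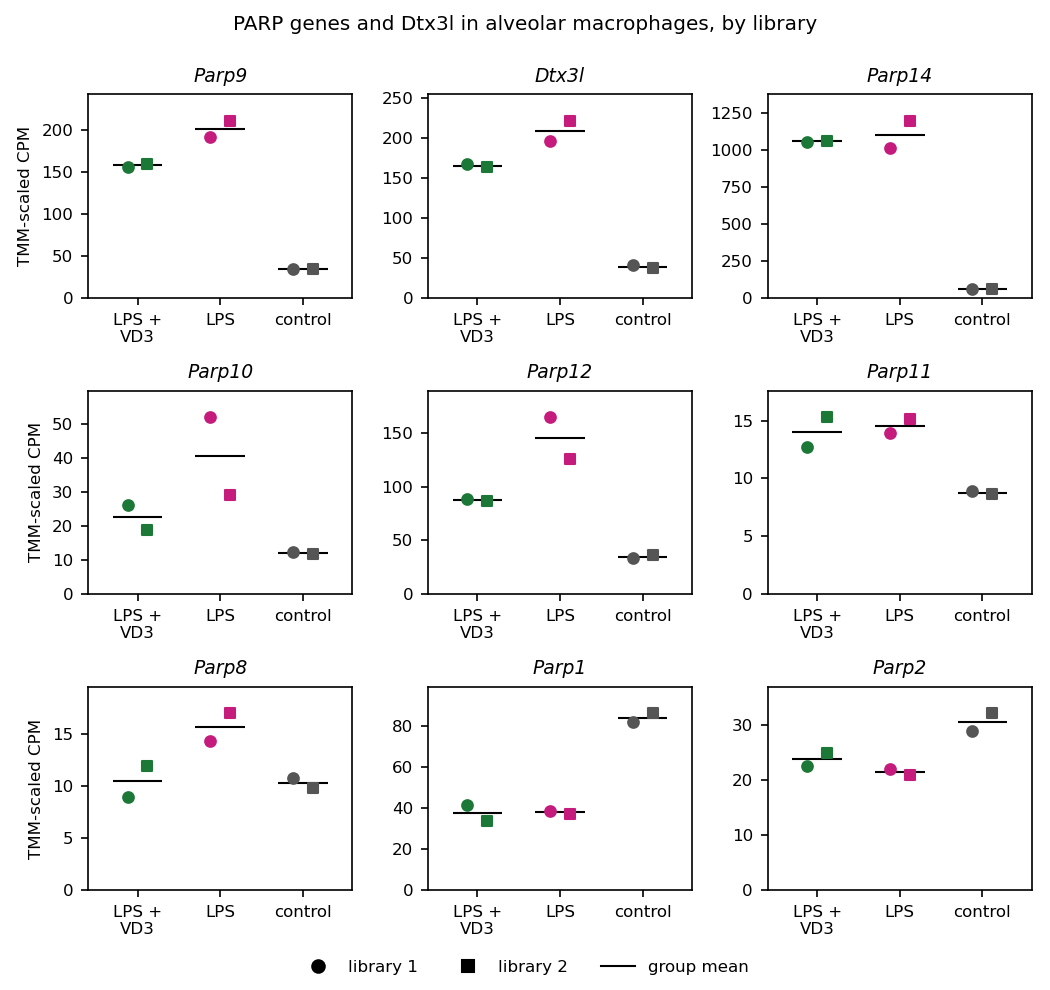
TMM-scaled CPM of each gene (y axis, from 0, with its own scale) in LPS + VD3, LPS and control cells; points are the 2 libraries of a group and bars their mean. Parp14 reaches 1195 CPM in LPS 2 against 62.3 and 63.9 CPM in control, and Parp1 is the gene with both controls, at 81.9 and 86.3 CPM, well above every library with LPS.

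Parp12 (chr6:39086410-39118349, minus strand) encodes a mono-ADP-ribosyltransferase with zinc fingers that restrains some RNA viruses. It had 88.2 and 86.9 CPM in LPS + VD3 libraries, 165 and 126 CPM in LPS libraries, and 33.5 and 36.0 CPM in control libraries. The groups did not overlap, and LPS + VD3 lay between LPS and control. LPS raised it by 2.06 ± 0.18 on the log2 scale against control (4.18-fold; edgeR adjusted p = 1.51e-05).

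Parp10 (chr15:76231174-76243441, minus strand) encodes a mono-ADP-ribosyltransferase with RNA-binding and ubiquitin-interacting motifs. It had 26.3 and 18.9 CPM in LPS + VD3 libraries, 52.1 and 29.3 CPM in LPS libraries, and 12.5 and 11.7 CPM in control libraries. The LPS libraries were far apart, and LPS 2 was closer to LPS + VD3 1 than to LPS 1. The rise with LPS was 1.75 ± 0.29 on the log2 scale (3.36-fold; edgeR adjusted p = 0.00116). Of the Parp10 exons, 205 bp (4.8%) are shared on the same strand with Plec, which codes for a cytoskeletal linker, so reads there are of uncertain origin.

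Parp11 (chr6:127446840-127494261, plus strand), a mono-ADP-ribosyltransferase linked to the nuclear envelope and to the turnover of the interferon receptor, moved less. It had 12.8 and 15.3 CPM in LPS + VD3 libraries, 13.9 and 15.2 CPM in LPS libraries, and 8.90 and 8.64 CPM in control libraries. Both control libraries were below all libraries with LPS, while LPS + VD3 and LPS overlapped. The log2 fold change of LPS against control was 0.73 ± 0.23 (edgeR adjusted p = 0.0332). The call was lost without control 1 (adjusted p = 0.186), control 2 (0.223) or LPS + VD3 2 (0.0511), with library-size scaling (0.162) and in DESeq2 (0.116), out of a range of 0.00855 to 0.223 over the alternatives.

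Parp8 (chr13:116854820-117025537, minus strand), a little-studied mono-ADP-ribosyltransferase, did not pass. Its level was 8.99 and 11.9 CPM in LPS + VD3 libraries, 14.3 and 17.0 CPM in LPS libraries, and 10.8 and 9.76 CPM in control libraries. LPS was above both other groups, which overlapped each other. The log2 fold change of LPS against control was 0.61 ± 0.24, with a 95% interval of 0.08 to 1.14 (edgeR adjusted p = 0.0769). It passed without LPS 1 (adjusted p = 0.0396) and with offsets for GC content (0.0237), in a range of 0.0237 to 0.378 over the alternatives.

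Of the DNA-repair genes, Parp1 fell with LPS and Parp2 did not pass. Parp1 (chr1:180568924-180601254, plus strand), the main poly(ADP-ribose) polymerase of DNA breaks, had 41.8 and 33.8 CPM in LPS + VD3 libraries, 38.7 and 37.4 CPM in LPS libraries, and 81.9 and 86.3 CPM in control libraries. Every library with LPS was below both controls, and the 2 groups with LPS overlapped. LPS lowered Parp1 to 0.453 of its control level (log2 fold change -1.14 ± 0.17; edgeR adjusted p = 0.000584). Parp2 (chr14:50807841-50821301, plus strand), its partner in the same response, had 22.6 and 25.0 CPM in LPS + VD3 libraries, 22.1 and 21.0 CPM in LPS libraries, and 28.9 and 32.2 CPM in control libraries. The controls were again on top, but the log2 fold change of -0.50 ± 0.19 did not pass (95% interval -0.91 to -0.09; edgeR adjusted p = 0.0641). Parp2 passed as lower without LPS 1 (adjusted p = 0.0388), with GC offsets (0.04) and with library-size scaling (0.00681), in a range of 0.00681 to 0.398.

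All 9 genes had no overlap between the libraries of LPS and control, as had 65.2% of all genes tested. The 6 calls of Parp9, Dtx3l, Parp14, Parp10, Parp12 and Parp1 in LPS against control held in every alternative run, including each left-out library.

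**Figure D3:**
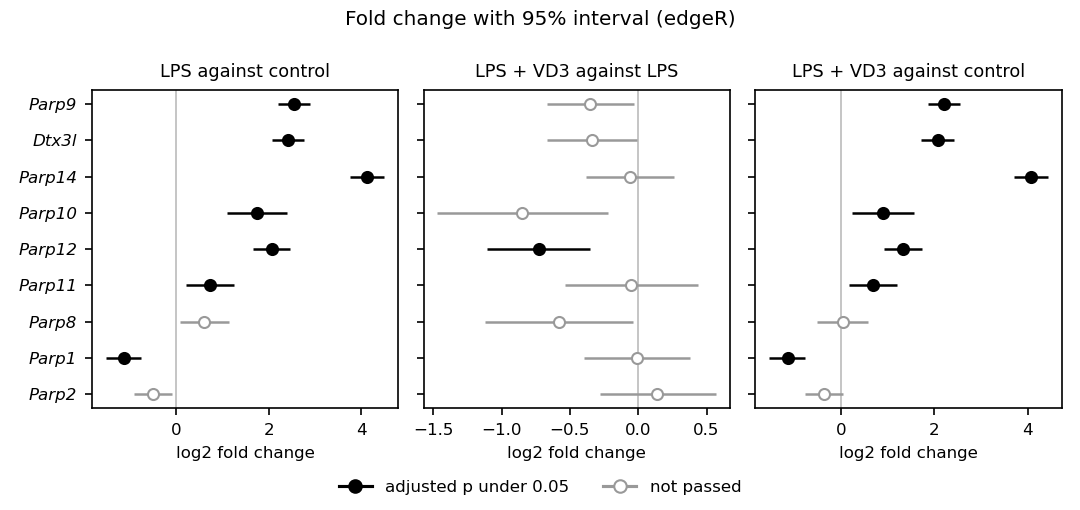
log2 fold change (x axis, with its own range in each panel) with 95% interval for the 9 genes, with 1 panel for each comparison of groups. Filled points passed at an adjusted p under 0.05: 7 genes in the first comparison, Parp12 in the second and 7 in the third.

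The order of the genes by level per length (CPM per kb of the longest coding transcript, mean ± SD, n = 2) differed between the groups. In LPS + VD3 cells Parp14 led with 143 ± 0.702, ahead of Parp9 with 44.6 ± 0.765, Dtx3l with 31.2 ± 0.461 and Parp12 with 27.1 ± 0.298, then Parp2, Parp1, Parp10, Parp11 and Parp8. In LPS cells Parp14 led with 149 ± 17.6, ahead of Parp9 with 56.7 ± 3.81, Parp12 with 45.0 ± 8.47 and Dtx3l with 39.4 ± 3.29, then Parp10, Parp2, Parp1, Parp8 and Parp11. In control cells Parp1 led with 21.7 ± 0.788, ahead of Parp2 with 16.1 ± 1.22, Parp12 with 10.8 ± 0.542 and Parp9 with 9.70 ± 0.0615, then Parp14, Dtx3l, Parp10, Parp8 and Parp11. Neighbours in these orders whose libraries overlapped were Parp11 and Parp8 in LPS + VD3 cells, Parp12 with Dtx3l and Parp10 with Parp2 in LPS cells, and Parp10 and Parp8 in control cells. Among the 9 genes, the most abundant per length was thus Parp1 in control cells and Parp14 in both groups with LPS. With the union of all exons as the length, Parp12 ranked above Parp2 in control cells (8.70 against 8.42 CPM per kb). Dtx3l then ranked above Parp12 in LPS cells (36.6 against 36.4 CPM per kb). Some lower places changed as well, while the leading gene of each group did not.

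Over 16 PARP genes (the 8 here and Parp3, Parp4, Parp6, Parp16, Tiparp, Tnks, Tnks2 and Zc3hav1), the summed level was 398 and 407 CPM per kb in LPS + VD3 libraries, 414 and 451 in LPS libraries, and 163 and 168 in control libraries. Parp14 made up 35.7% and 35.2% of that sum in LPS + VD3 libraries, 32.9% and 35.7% in LPS libraries, and 5.15% and 5.12% in control libraries. The share of Parp1 was 2.71% and 2.15% in LPS + VD3 libraries, 2.42% and 2.14% in LPS libraries, and 13% and 13.3% in control libraries. The shares of both groups with LPS overlapped each other and were apart from control. With exon-union lengths, the share of Parp14 was between 34.1% and 37.0% with LPS and 5.67% and 5.65% in control. Parp1 was not the highest of the 16 genes in control libraries. Per kb of the longest coding transcript, Tnks2 was highest there with 26.4 and 27.2 CPM, against 21.2 and 22.3 CPM for Parp1.

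**Figure D4:**
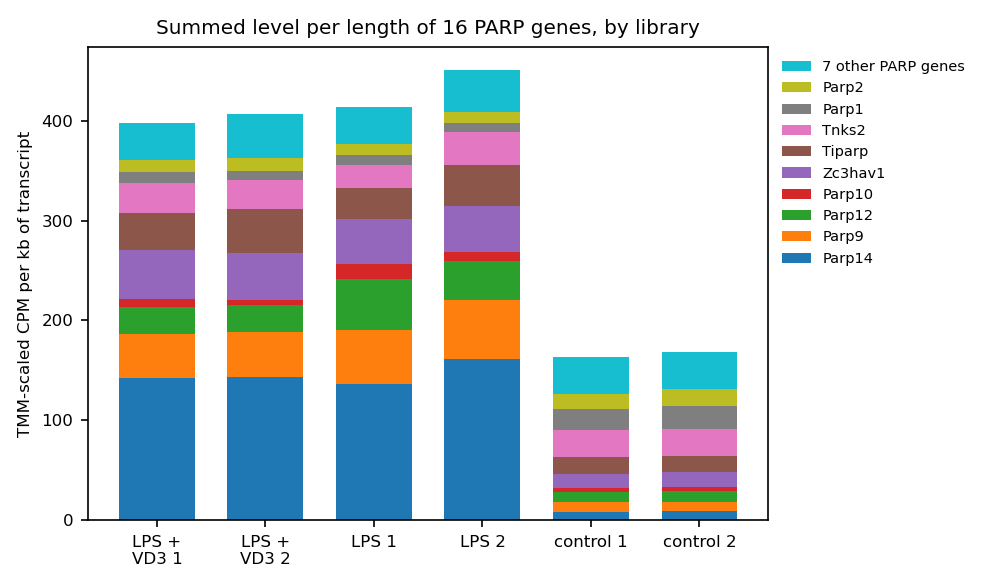
Stacked TMM-scaled CPM per kb of transcript for 16 PARP genes in each of the 6 libraries, LPS + VD3 and LPS to the left of control. The sum is 398 to 451 with LPS and 163 and 168 in control, and the Parp14 block is the largest single one in each library with LPS.

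Adding VD3 to LPS lowered 1 of the 9 genes, Parp12, and raised none. Of all genes tested 3.83% were called between LPS + VD3 and LPS, 2.25% as higher and 1.59% as lower. The median log2 fold change was -0.34 over the 9 genes and -0.003 over all genes tested. The groups did not overlap for 6 of the 9 genes, against 48.1% of all genes tested: 1 was higher (24.6% of all genes) and 5 were lower (23.5%). In this comparison 5 of the 9 (Parp9, Dtx3l, Parp10, Parp12 and Parp8) had an unadjusted p under 0.05, all with estimates below 0, where 22.1% of all genes tested had such a p and 11.3% had it with a lower estimate. DESeq2 likewise called 1 lower and 0 higher.

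Parp12 fell by 0.73 on the log2 scale (SE 0.17, 95% interval -1.11 to -0.35; edgeR adjusted p = 0.0456), to 0.602 of its level in LPS cells. The call sat close to the threshold. It was lost without control 1 or control 2 (adjusted p = 0.12 for each), without LPS + VD3 1 (0.188) or LPS + VD3 2 (0.354), with no filter on low counts (0.117) and in a fit of the 4 compared libraries (0.108), within a range of 0.0004 to 0.354. The log2 fold change was -0.54 without LPS 1 and -0.91 without LPS 2, and negative in every alternative. With GC offsets it was -0.71 and passed (edgeR adjusted p = 0.00792).

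Parp10 had the lowest estimate, at -0.85 ± 0.28, and did not pass (95% interval -1.47 to -0.22; edgeR adjusted p = 0.129). With the replicate number as a block in the fit it was -0.82 and passed (edgeR adjusted p = 0.0224). The estimate was -0.46 with GC offsets (adjusted p = 0.155), -0.39 without LPS 1 and -1.20 without LPS 2, where the adjusted p was 0.000807 out of a range of 0.000807 to 0.608. Parp9 and Dtx3l had log2 fold changes of -0.35 ± 0.14 and -0.34 ± 0.15, with edgeR adjusted p = 0.197 and 0.217. With GC offsets these were -0.45 and -0.48, and both then passed (adjusted p = 0.0251 and 0.0237, in ranges of 0.0251 to 0.556 for Parp9 and 0.0237 to 0.608 for Dtx3l). Parp8 did not pass, at -0.58 ± 0.24 (edgeR adjusted p = 0.201).

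For Parp14, Parp11, Parp1 and Parp2 no difference was detectable between LPS + VD3 and LPS. The 95% interval of the log2 fold change was -0.38 to 0.26 for Parp14, -0.54 to 0.44 for Parp11, -0.40 to 0.38 for Parp1 and -0.28 to 0.57 for Parp2. The intervals of Parp14, Parp11 and Parp1 still include the estimates of Parp9 and Dtx3l. Whether Parp12 and Parp14 differed in their response to VD3 was not tested.

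The LPS libraries differed from each other with GC content, which touches this comparison. The labels number LPS 1 in a different run of titles from the other 5 libraries, without saying why, so a batch that sets it apart cannot be told from a difference between replicates. Over the genes with a GC value, LPS 1 minus LPS 2 had a median log2 difference of -0.462 in transcripts under 44% GC and 0.511 in those over 56%. Parp10, at 58.2% GC, was higher in LPS 1 by 0.82 and Parp12, at 50.6%, by 0.39. Transcripts of 48 to 52% GC, which include Parp12, had a median difference of 0.023. Parp14, at 46.3% GC, was lower in LPS 1, with a difference of -0.24, as was Dtx3l, at 45.9%, with -0.17. The rank correlation of the difference between library 1 and library 2 with GC was 0.191 in LPS + VD3, 0.678 in LPS and 0.245 in control cells, across genes, which are not independent. The part of this difference in the VD3 results was not tested beyond the values with GC offsets and with each LPS library left out.

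**Figure D5:**
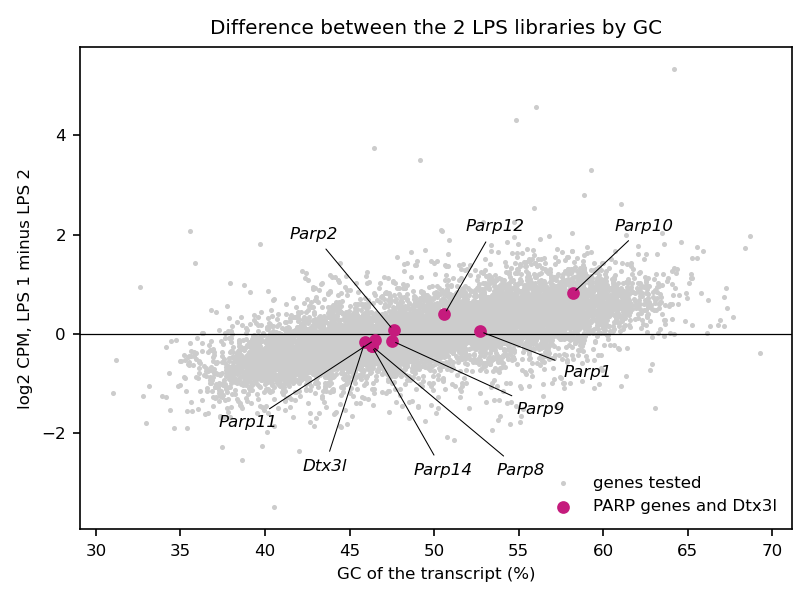
log2 difference in CPM between LPS 1 and LPS 2 (y axis) against transcript GC in percent (x axis) for the genes tested (grey) and the 9 genes (coloured). Parp10 at 58.2% GC lies at 0.82 and Parp12 at 50.6% at 0.39, while Parp14 at 46.3% lies at -0.24.

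In LPS + VD3 cells against control, Parp14, Parp9, Dtx3l, Parp12, Parp10 and Parp11 were higher and Parp1 was lower, where 35% of all genes tested were called (17.7% as higher, 17.3% as lower). Their libraries did not overlap for 8 of the 9 genes (6 higher, 2 lower), against 75.8% of all genes (38.4% higher, 37.4% lower). This comparison shares its control libraries with that of LPS alone, so the values are given side by side and not as a further result. For Parp14 the log2 fold change was 4.07 ± 0.17 in LPS + VD3 against control and 4.13 ± 0.17 in LPS against control. For Parp9 it was 2.20 ± 0.15 with LPS + VD3 and 2.55 ± 0.16 with LPS, and for Dtx3l 2.08 ± 0.16 with LPS + VD3 and 2.41 ± 0.16 with LPS. Parp12 remained 2.52-fold above control with LPS + VD3 (log2 fold change 1.33 ± 0.18; edgeR adjusted p = 0.000279). Parp1 had a log2 fold change of -1.15 ± 0.17 (edgeR adjusted p = 0.00053), and Parp2 and Parp8 did not pass, at -0.36 ± 0.18 and 0.03 ± 0.25.

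The calls of Parp10 and Parp11 in LPS + VD3 against control depended on several settings. The log2 fold change was 0.90 ± 0.30 for Parp10 (edgeR adjusted p = 0.0416) and 0.68 ± 0.23 for Parp11 (edgeR adjusted p = 0.0422). Each was lost without control 1 (adjusted p = 0.129 for Parp10 and 0.214 for Parp11), control 2 (0.166 and 0.237), LPS + VD3 1 (0.255 and 0.0655) or LPS + VD3 2 (0.0803 and 0.24), with no filter on low counts (0.104 and 0.0514) and with library-size scaling (0.157 and 0.244), and Parp11 also in DESeq2 (0.151). Over all alternatives the adjusted p was between 0.000669 and 0.255 for Parp10 and between 0.0155 and 0.244 for Parp11.

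LPS against control had 15.7% of all genes tested called higher and 16.2% lower. Of 11 genes of interferon signalling, 9 were raised by LPS against control and 0 were lowered (edgeR). At an unadjusted p under 0.05 these counts were 10 and 0, and in DESeq2 9 and 0. The median log2 fold change of the 11 genes was 1.37, also with Ifnb1 at its bound. Irf7, which drives interferon genes, had the smallest p, with 80.6 CPM in LPS cells and 1.08 CPM in control cells on average (log2 fold change 6.20 ± 0.41; edgeR adjusted p = 2.4e-06). Stat2 (2.72 ± 0.19; edgeR adjusted p = 3.82e-06) and Irf9 (2.76 ± 0.21; 6.61e-06), which act together as transcription factors downstream of the interferon receptor, rose as well. Ifnb1, the gene of interferon beta, had 30 counts over both LPS libraries and 0 over both controls, so it was at least 12.3-fold higher against a floor of 3 counts over the group. The number raised was 9 without LPS 1, 10 without LPS 2 and 7 without either control library.

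Between LPS + VD3 and LPS, 1.59% of all genes tested were called lower and 2.25% higher. VD3 lowered 2 of these 11 genes against LPS alone and raised 0 (edgeR; 4 and 0 at an unadjusted p under 0.05, 3 and 0 in DESeq2), with a median log2 fold change of -0.34. They were Irf1, an interferon-induced transcription factor (-1.23 ± 0.19; edgeR adjusted p = 0.00712), and Irf7 (-1.15 ± 0.27; adjusted p = 0.0461). The Irf7 call sat close to the threshold. Irf7 had 36.4 ± 1.44 CPM (mean ± SD) in LPS + VD3 cells and a wide 80.6 ± 35.5 CPM in LPS cells. With no filter on low counts, and with only the compared libraries, 1 of the 11 was lowered. Ifnb1 had 10 counts in LPS + VD3 and 30 in LPS libraries and did not pass (-1.56 ± 0.54; adjusted p = 0.147). Neither did Tyk2, a kinase of the interferon receptor (-0.72 ± 0.19; 0.0721), Stat2 (-0.38 ± 0.18; 0.246) or Irf9 (-0.34 ± 0.19; 0.315). The number lowered was 1 without LPS 1, 6 without LPS 2, 1 without either control library and 0 without either LPS + VD3 library. Against control, 8 of the 11 were higher in LPS + VD3 cells and 0 lower (9 and 0 at an unadjusted p under 0.05, 8 and 0 in DESeq2). The shares of all genes tested in that comparison were 17.7% higher and 17.3% lower.

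Among 8 further PARP genes, 2 rose with LPS against control, 0 fell (edgeR; 3 and 1 at an unadjusted p under 0.05, 2 and 0 in DESeq2), and the median log2 fold change was -0.07. Among all genes tested, 15.7% were called higher and 16.2% lower with LPS, and 17.7% and 17.3% in LPS + VD3 against control. Zc3hav1, the antiviral protein ZAP, which binds viral RNA and lacks ADP-ribosylation activity, averaged 225 CPM in LPS cells and 69.8 CPM in control cells (1.69 ± 0.15; edgeR adjusted p = 1.62e-05). Tiparp, a mono-ADP-ribosyltransferase induced by the aryl hydrocarbon receptor, averaged 152 CPM in LPS and 72.8 CPM in control cells (1.06 ± 0.19; adjusted p = 0.00156). Of the 8, 0 were called between LPS + VD3 and LPS (edgeR; 1 higher and 1 lower at an unadjusted p under 0.05, 0 in DESeq2), where Tnks, a tankyrase, had the smallest p (0.78 ± 0.22; adjusted p = 0.0932). In LPS + VD3 cells against control Zc3hav1 and Tiparp were higher and 2 genes were lower: Parp16 of the endoplasmic reticulum (-1.14 ± 0.38; adjusted p = 0.0421) and Parp3, which acts at DNA breaks (-0.64 ± 0.22; 0.0431; named after its value was seen). Both of these lower calls were lost in DESeq2, with no filter on low counts, and without any 1 of the control or LPS + VD3 libraries. Parp16 had only 22 counts over the LPS + VD3 libraries and 60 over the controls. Without LPS 2, 2 of the 8 were called higher in LPS + VD3 than in LPS.

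Of the other Deltex ubiquitin ligases, Dtx4 and Dtx2 rose with LPS against control, and Dtx3 did not pass. Among all genes tested, 15.7% rose in that comparison. Dtx4 averaged 251 CPM in LPS + VD3 cells, 366 CPM in LPS cells and 130 CPM in control cells. Its log2 fold change was 1.49 ± 0.15 in LPS against control (edgeR adjusted p = 3.39e-05) and -0.54 ± 0.14 in LPS + VD3 against LPS (adjusted p = 0.0702). Dtx2 had a log2 fold change of 1.97 ± 0.34 in LPS against control (adjusted p = 0.00156). Between LPS + VD3 and LPS, 0 of the 3 tested were called in edgeR, 2 were lower at an unadjusted p under 0.05, and DESeq2 called 1 lower, as did edgeR without LPS 1 (2 without LPS 2). Dtx1 was not tested.

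With LPS against control, 16.2% of all genes tested fell and 15.7% rose. Of 15 genes of single-strand and double-strand break repair, 9 fell and 1 rose in that comparison, and the median log2 fold change was -0.78. The smallest p-values were those of Prkdc, the catalytic subunit of DNA-PK (-1.63 ± 0.20; edgeR adjusted p = 0.000151), Fen1, a flap endonuclease (-1.28 ± 0.19; 0.000499), and Xrcc6, the Ku70 subunit (-1.67 ± 0.25; 0.000652). The gene that rose was Aptx, which clears blocked DNA ends (1.01 ± 0.21; adjusted p = 0.00436; named after its value was seen). The number lowered was 8 without LPS 1, 9 without LPS 2, 5 without either control library and 7 in DESeq2. The call of Aptx was lost without control 1, where 0 of the 15 were higher. Between LPS + VD3 and LPS, 0 of the 15 were called in edgeR or DESeq2 (1 higher and 1 lower at an unadjusted p under 0.05), with a median of 0.19. In LPS + VD3 against control 6 of the 15 fell and 1 rose, against 17.3% and 17.7% of all genes tested. Of 6 tested genes for the removal of ADP-ribose and the cofactor of PARP1, 2 fell with LPS: Hpf1, the cofactor that directs PARP1 to serine, listed as 2700029M09Rik (-0.79 ± 0.19; adjusted p = 0.00897), and Oard1, an ADP-ribose hydrolase (-0.83 ± 0.25; 0.0266). Both calls were lost without either control library. Between LPS + VD3 and LPS, 0 of these 6 were called in edgeR or DESeq2 (1 lower at an unadjusted p under 0.05).

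By their markers the libraries held alveolar macrophage RNA. The 10 listed symbols of alveolar macrophage markers matched 9 distinct genes of the table, and all 9 were tested. The summed level of these genes was 24000 to 26200 CPM in LPS + VD3, 25700 to 27400 CPM in LPS and 22100 to 22300 CPM in control libraries. Summed markers of other cells also differed between groups with and without LPS. Those with enough counts to be tested were 2 of 4 monocyte, 1 of 4 epithelial and 1 of 5 lymphocyte markers. For neutrophils they were 2 of the 4 in the table, for dendritic cells 2 of 5 and for stroma and endothelium 2 of 4. The 4 monocyte markers summed to 182 to 205 CPM in LPS + VD3, 269 to 367 CPM in LPS and 9.07 to 11.4 CPM in control libraries. The 4 epithelial markers summed to 38.0 to 50.9 CPM in LPS + VD3, 31.6 to 36.4 CPM in LPS and 222 to 238 CPM in control libraries, with Sftpc of type II cells at 0 counts. The 5 lymphocyte markers summed to 12.1 to 16.5 CPM in LPS + VD3, 12.3 to 13.5 CPM in LPS and 33.6 to 37.1 CPM in control libraries, with Cd3e and Nkg7 at 0. The 4 neutrophil markers in the table summed to 18.5 to 21.7 CPM in LPS + VD3, 16.6 to 20.4 CPM in LPS and 11.5 to 13.2 CPM in control libraries, with S100a9 and Mpo at 0. The 5 dendritic cell markers summed to 13.8 to 14.3 CPM in LPS + VD3, 9.22 to 10.7 CPM in LPS and 16.6 to 23.8 CPM in control libraries. The 4 stromal and endothelial markers summed to 2.19 to 2.3 CPM in LPS + VD3, 5.74 to 7.47 CPM in LPS and 1.44 to 1.71 CPM in control libraries, with Col3a1 at 0. Whether these sums came from other cells was not tested, nor was any part of such cells in the changes of the PARP genes and Dtx3l.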

How the data were processed

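RNA of wild-type mouse alveolar macrophages was purified with an RNeasy Micro kit and turned into RNA-seq libraries with a KAPA mRNA HyperPrep kit, per the labels' protocols. The table used, as deposited by the authors, gives raw counts of reads for each gene in each library. TopHat2, edgeR and mm10 are named in the submitters' processing notes, without versions or order. The sources used here name no counting program, annotation, strand setting or rule for reads that match several places. The authors' second table, of log2 values, was not used. The members and gene lists were chosen with earlier results of these data known.

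Low genes were removed with filterByExpr (at least 10 counts, 15 in total), leaving 10724 of 23413 genes, and libraries were scaled by TMM. All 6 libraries were fitted with 3 group means by edgeR 4.0.16 in R 4.3.3 (glmQLFit with legacy set to false, 7.01 prior and 3 residual degrees of freedom), and 3 comparisons were tested two-sided with glmQLFTest and Benjamini-Hochberg adjustment over all genes at 0.05. SE is the absolute log2 fold change over the root of F. Each group has 2 libraries, which limits precision, at a depth of 5022314 to 5465223 counts; floors cover counting error only.

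Symbols were matched to GENCODE vM21 for length and GC, 21777 directly and 1278 by RefSeq synonym. Lists are described by counts and medians. Named list genes are those with the smallest p, up to 3 per list and comparison, and Ifnb1, Stat2, Irf9 and Nampt; a gene that this rule takes is not reported here. Alternatives were DESeq2 1.42.0, no filter, library-size scaling, only the compared libraries, a replicate block, GC offsets, each library left out, and, chosen after seeing the data, the legacy edgeR option.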

Additional observations from a re-analysis of the deposited data

How the results depend on the processing

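Over the 9 genes and 3 comparisons, 306 values under the alternatives kept direction and side of the threshold, 24 lost the call, 11 gained it and 10 changed sign. Sign changes were all in values near 0. In LPS + VD3 against LPS, leaving out a library gave -0.19 to 0.07 for Parp14 (0.07 without LPS 2), -0.20 to 0.07 for Parp11 (0.02 without LPS 2, 0.07 without LPS + VD3 1) and -0.17 to 0.13 for Parp1 (0.01 without LPS 1, 0.13 without LPS + VD3 2), and GC offsets gave 0.09 for Parp1. In LPS + VD3 against control, Parp8 was -0.22 to 0.22 with a library left out (-0.22 without LPS + VD3 2, -0.04 without control 2), -0.30 with library-size scaling and -0.06 with GC offsets.

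The number of genes called between LPS + VD3 and LPS was 411, and 169 with no filter, 258 with only the compared libraries, 830 with GC offsets, 1152 with the replicate block and 55 to 3670 with a library left out; the highest was without LPS 2 and the lowest without LPS + VD3 2, and the cause was not tested. Leaving out a library gave 1939 to 4826 genes in LPS against control (3411 with all) and 2126 to 5410 in LPS + VD3 against control (3749 with all). DESeq2 called 543, 2907 and 3117 in the same order, and the legacy option 409, 3371 and 3713. With library-size scaling the median of all genes was -0.288 in LPS against control and -0.318 in LPS + VD3 against control, and 26.2% and 25.9% of calls were higher, instead of 49.2% and 50.5%. Replicate differences of the groups correlated at 0.0894 to 0.196, and the main fit took the replicate numbers only as names. The labels do name each LPS + VD3 library after an LPS library, with no statement of shared cells or days. The correlation for LPS with LPS + VD3 was 0.196, the highest of the pairs, and whether these libraries were paired is not known. The block called 3986 genes in LPS against control and 4432 in LPS + VD3 against control, and with it Parp10 also passed in LPS + VD3 against LPS (adjusted p = 0.0224, in a range of 0.000807 to 0.608), as did Parp2 in LPS against control (0.0494, in a range of 0.00681 to 0.398).

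With 2 libraries a group, a group left with 1 library is assumed to vary like the others. Low counts limit Parp11 and Parp8, with 43 to 84 counts in a library.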

Other observations

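Genes that make or use NAD, the substrate of PARP enzymes, mostly did not pass: of 10 tested, 1 rose and 1 fell in LPS against control, and 0 were called between LPS + VD3 and LPS in edgeR (1 higher and 1 lower at an unadjusted p under 0.05; 1 higher in DESeq2). Among all genes tested, 15.7% rose and 16.2% fell in LPS against control. Cd38, an NAD-consuming surface enzyme, averaged 107 CPM in LPS + VD3, 66.0 CPM in LPS and 13.5 CPM in control cells. Its log2 fold change was 2.29 ± 0.19 in LPS against control (edgeR adjusted p = 1.27e-05) and 0.70 ± 0.17 in LPS + VD3 against LPS (adjusted p = 0.0556). Nadk2, a mitochondrial NAD kinase listed as Nadkd1, was the gene that fell with LPS (-1.33 ± 0.37; adjusted p = 0.019). Nampt, the rate-limiting enzyme of NAD salvage, averaged 764 CPM in LPS + VD3, 745 CPM in LPS and 601 CPM in control cells and did not pass with LPS against control (0.31 ± 0.17; adjusted p = 0.192). The call of Nadk2 was lost without control 1, control 2 or LPS 1, and with no filter on low counts, where 0 of the list were lower in LPS against control. Without control 1 or control 2, 1 of the 10 was higher.

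Across the 6 libraries, the tested genes whose log2 CPM most resembled that of Parp14 were Slfn8, Sod2, Fam102b, Clec4e and Inhba, with Pearson correlations of 0.9998 to 0.9993. For Dtx3l they were Gp49a, Rcn1, Clec4d, Parp9 and Dennd5a, with 0.9993 to 0.9988, and Parp9 ranked 4. Parp1 correlated with Parp14 at -0.986. These values describe 3 groups of 2 libraries that share their treatments, and carry no test.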
